A study of Homo sapiens with 6 samples.

Results

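The genes described here are 54 genes of the mitotic machinery: the cyclins and kinases that drive entry into mitosis, condensin and topoisomerase, the proteins that hold and release sister chromatids, the ubiquitin ligase of mitotic exit, cytokinesis and spindle proteins, and the regulators that transcribe them. They were chosen by name and known role and not by a cut on their values, but with earlier results of these data known. All 54 were found among the 19830 genes of the authors' deposited table. All 54 were also among the 14063 genes with an adjusted p, which are called tested genes here. RNA was measured in PANC-1 cells, an established cell line of human pancreatic ductal adenocarcinoma, after transfection with siRNA by Lipofectamine. The group given SOX9 siRNA and the group given control siRNA each had 2 libraries, both at 25 nM siRNA for 48 hours. Cells were pooled at harvest, and a single line limits both groups as a model. The 2 ChIP samples of the series were not analysed here.

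In dividing cells, cyclin A and cyclin B bind the kinase CDK1, and the active kinase starts chromosome condensation, nuclear envelope breakdown and spindle assembly. The anaphase-promoting complex, a ubiquitin ligase, then marks securin and the mitotic cyclins for destruction, which releases sister chromatids and ends mitosis. Many of these genes are transcribed late in the cell cycle, by the MuvB complex with B-MYB and later with FOXM1, through a short promoter element called the cell cycle homology region, and p53 is known to lower many of them through p21 and the DREAM complex. In pancreatic ductal adenocarcinoma, as in other carcinomas, these genes are known as markers of proliferating cells.

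The authors' deposited table holds 1 value per gene for the comparison and none per library, so neither the spread between single libraries nor the depth of each library can be given. The labels do not state whether libraries of 1 group are separate cultures, so the authors' p-values cover only the spread among the 4 libraries, and this may be technical. SOX9, the siRNA target, stood at 55.9% of its control level in the authors' deposited table, with a 95% interval from 39.2% to 79.8% and an adjusted p of 0.0643. The table's header names no numerator, and fold changes are read as SOX9 siRNA over control siRNA from the sign at SOX9, which therefore does not check the labels. The 6 tested epithelial and duct markers had mean normalized counts up to 203350 (KRT8) in the authors' deposited table. The markers of other cell types had summed mean normalized counts of 59.3 for 4 leukocyte genes, 8.62 for 4 endothelial genes and 39.7 for 4 fibroblast genes.

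Most of the mitotic genes had slightly lower values with SOX9 siRNA, and a single gene passed the test. TOP2A fell, none rose, and the other 53 did not pass the threshold of 0.05 on the adjusted p of the authors' deposited table. The 1 called gene is 1.85% of the 54, against 1.81% of all tested genes called in either direction, 0.939% that fell and 0.868% that rose, so the share called was near the background. At an unadjusted p under 0.05, 9 of the 54 had lower values (16.7%) and 0 higher ones, against 6.15% lower and 4.98% higher among all tested genes. Those 9 were TOP2A, CDK1, MELK, AURKB, LIN9, CCNA2, FOXM1, UBE2S and MYBL2.

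The log2 fold change was negative for 49 of the 54 genes (90.7%), against 52.1% of all tested genes. The 5 positive values belonged to CDC25B, NEK2, HMMR, WEE1 and SGOL2, and none of the 5 passed the test. The median log2 fold change of the 54 was -0.23, which is 85.2% of control, with quartiles at -0.36 and -0.16. All tested genes had a median log2 fold change of -0.02, with quartiles at -0.20 and 0.18. The fold changes of the 54 spanned -0.67 to 0.22 on the log2 scale, with an SD across genes of 0.18, against 0.36 across all tested genes. These genes were read in the same 4 libraries and are not independent replicates. Multiplied out from the authors' means and fold changes, the normalized counts of the 54 summed to 368009 with SOX9 siRNA and 445784 with control siRNA, a ratio of 82.6%. In bulk RNA, fewer cells in G2 or mitosis and less RNA of these genes per cell cannot be told apart.

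**Figure D1:**
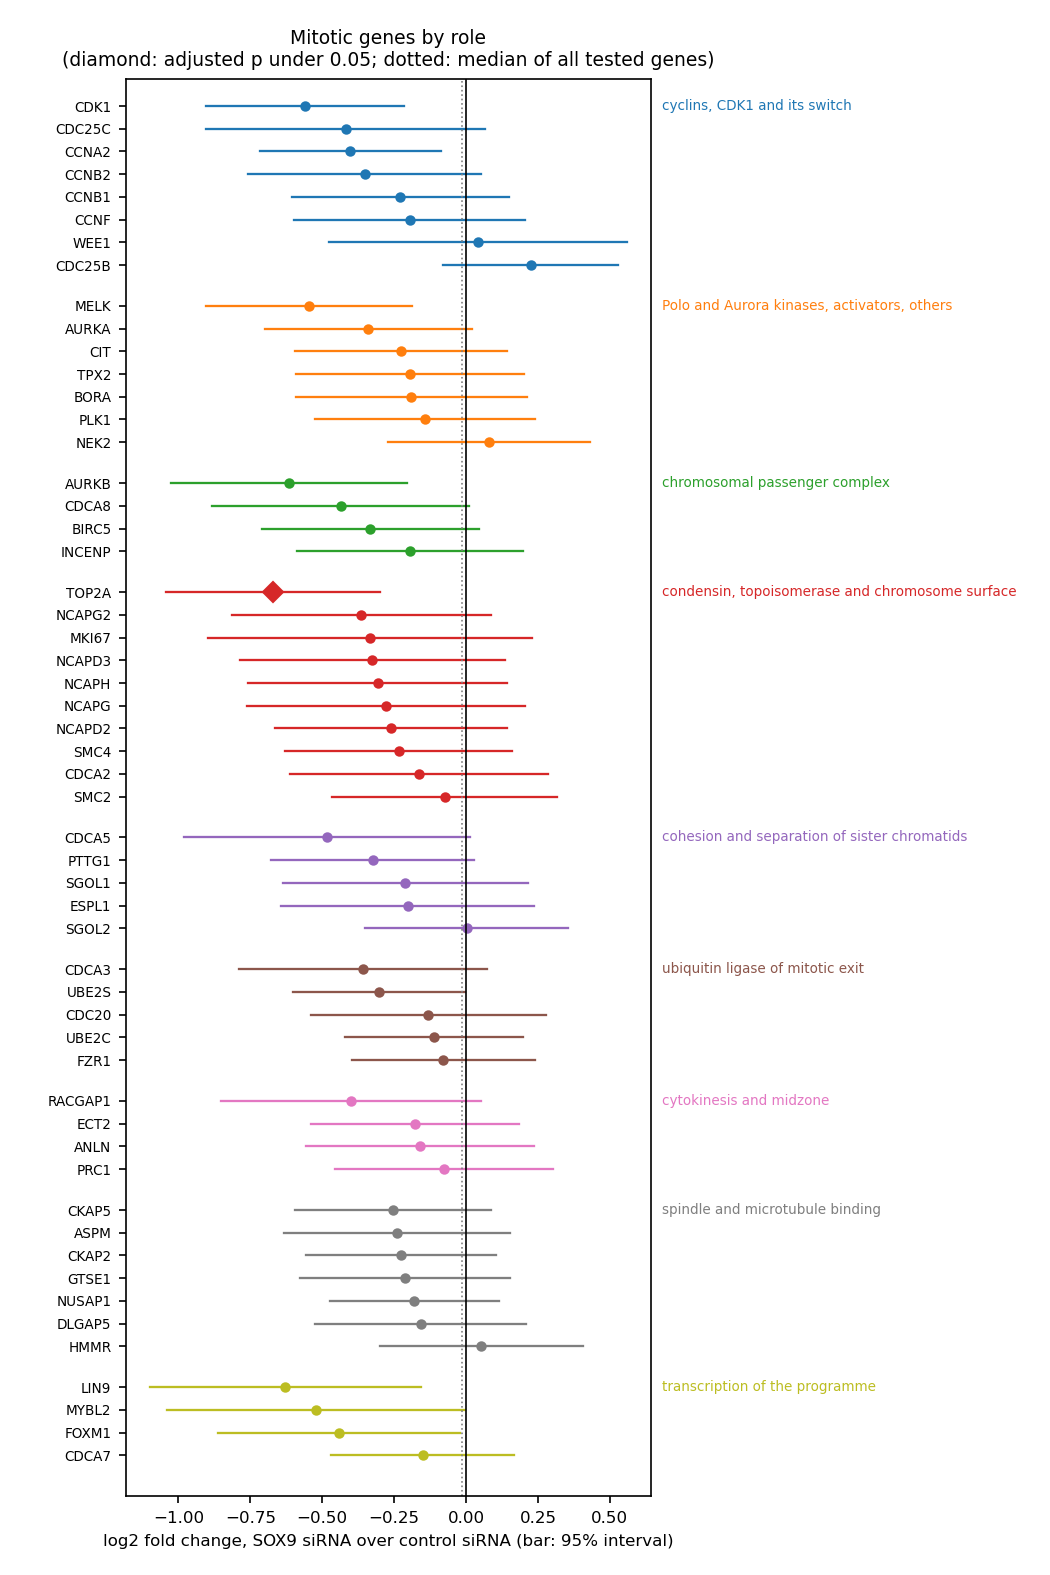
Log2 fold change of each of the 54 mitotic genes, SOX9 siRNA over control siRNA, grouped by role, with bars for the 95% interval. The diamond marks TOP2A, the gene with an adjusted p under 0.05, and 49 of the 54 points lie left of 0.

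The precision sets what these values can show. The standard errors of the 54 ran from 0.15 to 0.29 on the log2 scale, with a median of 0.20. The largest p that was called among all tested genes was 0.000901, so a gene with the median standard error had to reach 0.67 on the log2 scale, or 63.0% of control, to be called. The 95% interval included no change in 45 of the 54. It stayed above 50% of control in 50, and reached below 50% in TOP2A, AURKB, MYBL2 and LIN9.

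Read counts were high for these genes, and fold changes of genes with high counts leaned lower in the whole table. A total of 51 of the 54 had a mean normalized count above 1279, the median of all tested genes, and 36 were in the 2 highest of 10 equal bins of mean normalized count. In those 2 bins 64.8% and 63.7% of all tested genes were negative. Set against the median of all tested genes in the same bin, 49 of the 54 still lay below. After centring on those medians the median log2 fold change of the 54 was -0.18. These counts are not per transcript length, so the bins rank genes by reads and not by number of transcripts.

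**Figure D2:**
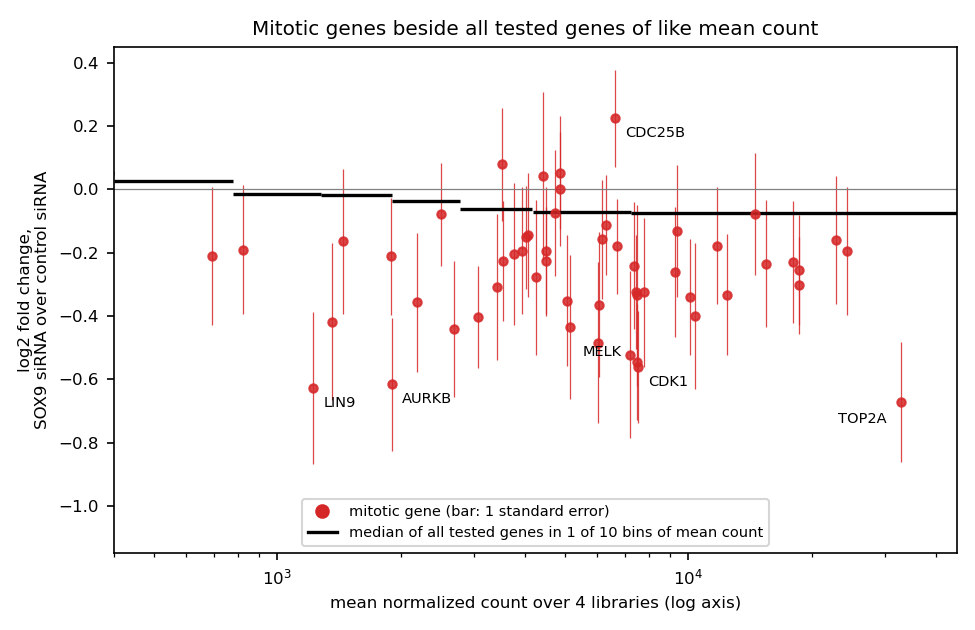
Log2 fold change of the 54 mitotic genes, SOX9 siRNA over control siRNA, against their mean normalized count over the 4 libraries on a log axis, with bars of 1 standard error. Black segments give the median of all tested genes in each of 10 bins of mean normalized count, and 49 of the 54 points lie below the segment of their bin.

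Condensin and topoisomerase shape the chromosomes, and all 10 genes of this group had negative values, with a median log2 fold change of -0.29. TOP2A, the topoisomerase that untangles sister DNA molecules and works beside condensin, had an implied mean normalized count of 25334 with SOX9 siRNA and 40354 with control siRNA. TOP2A fell to 62.8% of control, with a 95% interval from 48.5% to 81.3%. Its log2 fold change in the authors' deposited table was -0.67 with a standard error of 0.19, an unadjusted p of 0.000419 and an adjusted p of 0.0329, which ranked 179th by p. The call rests on the scaling and the null used. TOP2A had an adjusted p of 0.0812 when fold changes were centred within the 10 bins of mean count, 0.154 against an empirical null and 0.806 in a test against a 1.2-fold change. Its range over all alternatives was 0.0293 to 0.806.

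The other 9 genes of the group did not pass the test. SMC2 and SMC4, the ATPase arms of both condensins, stood at -0.07 and -0.23 (log2 fold change) in the authors' deposited table. The subunits of condensin I, NCAPD2, NCAPG and NCAPH, had -0.26, -0.28 and -0.31. The subunits of condensin II, NCAPD3 and NCAPG2, had -0.33 and -0.36. Leaving out SMC2 and SMC4, the subunit values of both complexes lay within 1 standard error of each other. MKI67, the Ki-67 protein that coats mitotic chromosomes and is widely used to mark proliferating cells, had -0.33 with a standard error of 0.29 in the authors' deposited table. CDCA2, a chromatin-bound partner of protein phosphatase 1, had -0.16.

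Promoters are shown because many of the 54 genes are known as targets of the late cell cycle programme. They are those of TOP2A and of 3 other genes of the 54. Those 3 had the smallest p among genes whose RefSeq promoter holds a form of the cell cycle homology region and can be printed. This choice does not show that each printed gene is such a target. Each is 300 bases on the gene's strand, 250 before to 50 after the start, from RefSeq on GRCh38.p14. Capitals mark TTTGAA or TTCGAA, core forms of the cell cycle homology region, and CCAAT, the box bound by NF-Y. Matches are on either strand, so that TTCAAA and ATTGG are reverse complements of TTTGAA and CCAAT. TOP2A is read on the minus strand of chr17:40417847-40418146, and CDK1 on the plus strand of chr10:60778228-60778527. LIN9 is read on the minus strand of chr1:226309115-226309414, and CDCA8 on the plus strand of chr1:37692266-37692565.
TOP2A: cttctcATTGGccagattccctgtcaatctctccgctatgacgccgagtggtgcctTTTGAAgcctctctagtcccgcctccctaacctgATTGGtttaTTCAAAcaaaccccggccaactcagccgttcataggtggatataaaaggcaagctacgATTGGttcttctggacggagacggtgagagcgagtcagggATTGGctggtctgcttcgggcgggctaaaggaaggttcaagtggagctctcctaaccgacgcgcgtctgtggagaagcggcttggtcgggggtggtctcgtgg
CDK1: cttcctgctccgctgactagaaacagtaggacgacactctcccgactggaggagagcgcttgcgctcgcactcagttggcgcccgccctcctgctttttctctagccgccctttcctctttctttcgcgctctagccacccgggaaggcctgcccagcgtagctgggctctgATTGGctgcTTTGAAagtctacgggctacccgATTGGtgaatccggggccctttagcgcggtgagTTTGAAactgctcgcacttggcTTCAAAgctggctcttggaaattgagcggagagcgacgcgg
LIN9: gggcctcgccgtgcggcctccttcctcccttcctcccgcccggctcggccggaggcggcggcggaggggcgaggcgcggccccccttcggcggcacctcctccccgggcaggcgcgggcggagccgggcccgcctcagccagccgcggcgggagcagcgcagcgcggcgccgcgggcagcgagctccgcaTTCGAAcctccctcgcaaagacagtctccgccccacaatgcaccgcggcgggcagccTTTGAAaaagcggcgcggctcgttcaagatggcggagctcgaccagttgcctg
CDCA8: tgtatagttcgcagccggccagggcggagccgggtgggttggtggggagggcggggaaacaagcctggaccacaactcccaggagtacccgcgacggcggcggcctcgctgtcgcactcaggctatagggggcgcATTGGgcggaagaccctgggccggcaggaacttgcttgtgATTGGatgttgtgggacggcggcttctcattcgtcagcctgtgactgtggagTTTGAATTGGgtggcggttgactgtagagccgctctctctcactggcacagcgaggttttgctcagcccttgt

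The TOP2A promoter held 2 matches to TTTGAA and 4 to CCAAT. The CDK1 window, 1 of 2 for that gene, held 3 matches to TTTGAA and 2 to CCAAT, with TTTGAA at 69 and 13 bases before the start on the gene's strand. The LIN9 window, 1 of 3, held 1 match to TTCGAA and 1 to TTTGAA and none to CCAAT. For CDK1 and LIN9 the window with the most matches was printed, among those holding a cell cycle homology form. The choice of window thus favours high counts of matches. In CDCA8 the TTTGAA at 23 bases before the start overlaps the ATTGG at 18 bases before it. These matches are letters in the windows and no measurement of binding.

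Across all the genes, RefSeq held 63 promoters of 46 of the 54, and 8 genes were not matched (AURKA, BIRC5, CDCA2, TPX2, UBE2C, RACGAP1, FOXM1 and WEE1). TTTGAA or TTCGAA was present on either strand in 58.7% of the 63, against 11.7% of the 15714 promoters of tested genes and 16.4% of all 35116. CCAAT was present in 63.5% of the 63, against 34.5% of the promoters of tested genes. GCGGG, part of the site of E2F factors, was in 95.2%, against 79.3% of the promoters of tested genes. The longer E2F forms TTTGGCGC and TTTCGCGC were in 1.59% and 3.17%, against 0.993% and 0.865%. The SOX core forms ACAATG and ACAAAG were in 3.17% and 4.76%, against 6.61% and 11.8% of the promoters of tested genes, and no match says only that these letters are not in the window. The 34 genes with a cell cycle homology match had a median log2 fold change of -0.22, the 12 without had -0.31 and the 8 with no promoter in RefSeq had -0.26. Genes with and without TTTGAA or TTCGAA thus both had mostly negative values, 32 of 34 and 10 of 12. Other forms of the element were not searched, so the 12 are not shown to lack it.

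**Figure D3:**
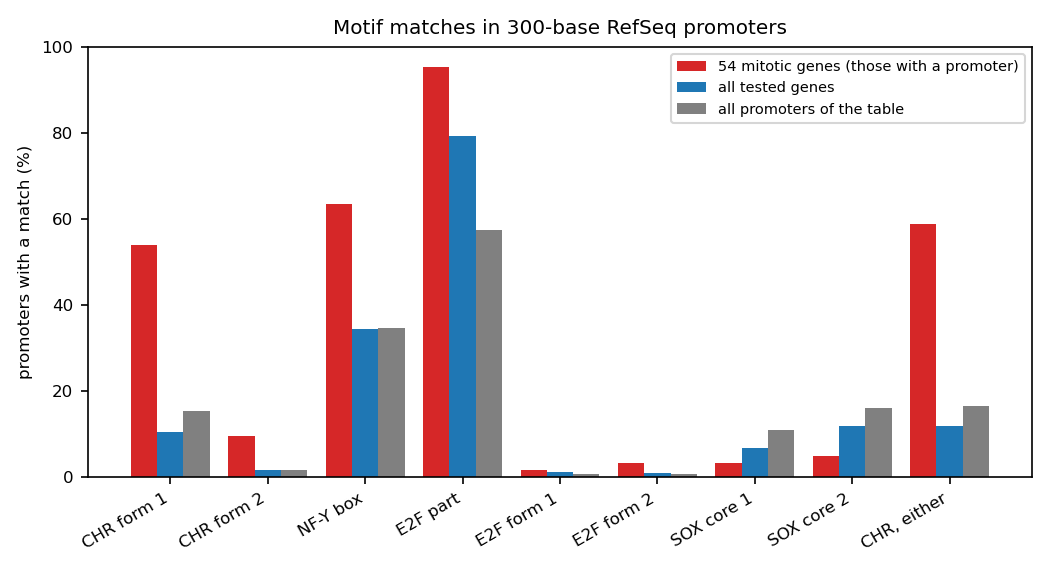
Percentage of 300-base RefSeq promoters with a motif match on either strand, for promoters of the mitotic genes, of all tested genes and of the whole table. CHR (cell cycle homology region) forms 1 and 2 are TTTGAA and TTCGAA, the NF-Y box is CCAAT, the E2F part is GCGGG, E2F forms 1 and 2 are TTTGGCGC and TTTCGCGC, and SOX cores 1 and 2 are ACAATG and ACAAAG. Either CHR form is in 58.7% of the promoters of mitotic genes, against 11.7% of those of tested genes.

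The switch into mitosis is made of cyclins, CDK1 and the enzymes that set its phosphorylation. Of these 8 genes 6 had negative values and none passed the test, with a median log2 fold change of -0.29. CDK1, the mitotic kinase itself, had implied mean normalized counts of 6082 with SOX9 siRNA and 8972 with control siRNA. Its log2 fold change in the authors' deposited table was -0.56 with a standard error of 0.18, an unadjusted p of 0.00141 and an adjusted p of 0.0667. This is 67.8% of control, with a 95% interval from 53.4% to 86.1%. CCNA2, the A-type cyclin of S phase and early mitosis, had implied mean normalized counts of 2651 with SOX9 siRNA and 3503 with control siRNA. Its log2 fold change there was -0.40 with a standard error of 0.16, an interval of 60.8% to 94.1% of control, an unadjusted p of 0.0123 and an adjusted p of 0.227. CCNA2 overlaps EXOSC9 in RefSeq.

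The B-type cyclins CCNB1 and CCNB2, which carry CDK1 through mitosis, stood at -0.23 and -0.35 (log2 fold change) in the authors' deposited table, and neither passed the test. CCNF, a cyclin that serves as an F-box protein of a ubiquitin ligase, had -0.20. The phosphatases that activate CDK1 lay on opposite sides of 0. CDC25C had -0.42, with an interval of -0.90 to 0.07, and CDC25B had 0.22, with an interval of -0.08 to 0.53, and both intervals include no change. WEE1, the kinase that restrains CDK1, had 0.04 in the authors' deposited table.

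Of the 7 genes for Polo and Aurora kinases, their activators and other mitotic kinases, 6 were negative, with a median log2 fold change of -0.19. MELK, a kinase expressed late in the cell cycle, had implied mean normalized counts of 6096 with SOX9 siRNA and 8898 with control siRNA. Its log2 fold change in the authors' deposited table was -0.55 with a standard error of 0.18, an interval of 53.5% to 87.8% of control, an unadjusted p of 0.00278 and an adjusted p of 0.104. AURKA, the Aurora kinase of spindle poles, had -0.34, and TPX2, which activates it on the spindle, had -0.19. PLK1, the Polo kinase of mitotic entry, had -0.14, and BORA, which helps Aurora A activate it, had -0.19. CIT, the citron kinase of the midbody, had -0.23 and NEK2, the kinase that parts the centrosomes, had 0.08 in the authors' deposited table. None of the 7 passed the test.

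The chromosomal passenger complex corrects faulty attachments of chromosomes to the spindle, and all 4 of its genes were negative, with a median log2 fold change of -0.38. AURKB, its kinase, had implied mean normalized counts of 1496 with SOX9 siRNA and 2293 with control siRNA. Its log2 fold change in the authors' deposited table was -0.62 with a standard error of 0.21, an interval of 49.1% to 86.8% of control, an unadjusted p of 0.00331 and an adjusted p of 0.114. CDCA8, the subunit borealin, had -0.44 and BIRC5, the subunit survivin, had -0.33. INCENP, the scaffold, had -0.19 in the authors' deposited table, and none of the 4 passed the test.

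Of the 5 genes that hold and separate sister chromatids, 4 were negative and none passed the test, with a median log2 fold change of -0.21. CDCA5, the protein sororin that keeps cohesin on the chromosomes, had a log2 fold change of -0.48 with a standard error of 0.25, an interval of 50.7% to 101% of control, an unadjusted p of 0.0562 and an adjusted p of 0.470, per the authors' deposited table. PTTG1, the securin that holds separase inactive, had -0.32, and ESPL1, separase, had -0.20. Reads of PTTG1 may be shared with its near-identical copy PTTG3P, whose mean normalized count was 9.74 in the authors' deposited table. The shugoshins that protect centromeric cohesin had -0.21 (SGOL1) and 0.00 (SGOL2).

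The genes of mitotic exit had the median nearest to 0 of the 9 role groups, at -0.13, with all 5 values negative. UBE2S, the enzyme that extends ubiquitin chains for the anaphase-promoting complex, had a log2 fold change of -0.30 with a standard error of 0.15, an interval of 65.9% to 99.7% of control, an unadjusted p of 0.0464 and an adjusted p of 0.434, per the authors' deposited table. UBE2S overlaps RPL28 in RefSeq, and the sources used here do not say whether counting used strand. UBE2C, which starts those chains, had -0.11. CDC20 and FZR1, the activators that bring substrates to the ligase in turn, had -0.13 and -0.08. CDCA3, an F-box protein that speeds the loss of WEE1, had -0.36 in the authors' deposited table, and none of the 5 passed the test.

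All 4 genes of cytokinesis and the spindle midzone were negative, with a median log2 fold change of -0.17, and none passed the test. RACGAP1, which with a kinesin forms the centralspindlin complex, had -0.40 with a standard error of 0.23, an interval of 55.4% to 104% of control, an unadjusted p of 0.0830 and an adjusted p of 0.547, per the authors' deposited table. ECT2, the exchange factor that centralspindlin recruits, had -0.18, and ANLN, the ring scaffold anillin, had -0.16. PRC1, which bundles midzone microtubules, had -0.08.

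Of the 7 genes for spindle and microtubule binding, 6 were negative, with a median log2 fold change of -0.21, and none passed the test. CKAP5, a microtubule polymerase, had -0.25 with a standard error of 0.17, an interval of 66.2% to 106% of control, an unadjusted p of 0.144 and an adjusted p of 0.658, per the authors' deposited table. ASPM of the spindle poles had -0.24, CKAP2, a spindle-associated protein, had -0.23, GTSE1, a microtubule-binding protein that also restrains p53, had -0.21, NUSAP1, which crosslinks microtubules near chromatin, had -0.18 and DLGAP5, which stabilizes kinetochore fibres, had -0.16. HMMR, a spindle assembly factor, had 0.05.

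The transcription group had the lowest median of the 9 role groups, -0.48, and 3 of its 4 genes had an unadjusted p under 0.05, though none passed the adjusted test. LIN9, a core subunit of MuvB, had implied mean normalized counts of 959 with SOX9 siRNA and 1482 with control siRNA. Its log2 fold change in the authors' deposited table was -0.63 with a standard error of 0.24, an interval of 46.7% to 89.7% of control, an unadjusted p of 0.00891 and an adjusted p of 0.188. MYBL2, the B-MYB factor that joins MuvB, had -0.52 with a standard error of 0.26, an interval of 48.6% to 99.6% of control, an unadjusted p of 0.0477 and an adjusted p of 0.440. FOXM1, the forkhead factor of G2 and mitosis, had -0.44 with a standard error of 0.21, an interval of 55.1% to 98.5% of control, an unadjusted p of 0.0390 and an adjusted p of 0.401, per the authors' deposited table. FOXM1 overlaps ITFG2 and RHNO1 in RefSeq. CDCA7, a MYC and E2F target, had -0.15. No difference between role groups was tested.

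Other genes of the pathway were set beside these. The MuvB core and DREAM partners that are not among the 54 had 9 of 11 negative values, with a median log2 fold change of -0.21. RBBP4, a histone-binding subunit of MuvB and of chromatin complexes, fell to 61.7% of control, with a log2 fold change of -0.70, a standard error of 0.20 and an adjusted p of 0.0416, per the authors' deposited table. It was the only 1 of the 11 called, and it was not called at a threshold of 0.01, with adjustment over every gene (adjusted p of 0.0584), centring within the 10 bins (0.0957), an empirical null (0.173) or a test against a 1.2-fold change (0.834). In the p53 to p21 list 7 of 9 values were positive, with a median of 0.20, and none passed the test. CDKN1A, the CDK inhibitor p21, had 0.20 with an adjusted p of 0.755, and MDM2, the ligase that limits p53 and the gene of this list with the smallest p, had -0.52 with an adjusted p of 0.193, per the authors' deposited table.

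The subunits of the anaphase-promoting complex and its inhibitor lay close to all tested genes, with a median log2 fold change of -0.04 over 15 and none called. The smallest p there was that of the subunit CDC27, with -0.37 and an adjusted p of 0.290, per the authors' deposited table. The cohesin ring and its regulators had a median of -0.16 over 13, with none called. STAG2, a cohesin subunit, had -0.60 and an adjusted p of 0.110, per the authors' deposited table. The list of other regulators of mitotic entry and its reversal had a median of -0.30 over 19, with 15 negative and none called. It also holds CCNE1 (-0.86), CCNE2 (-0.61) and CDK2 (-0.58) of entry into S phase, PLK4 of centriole duplication and the condensin II subunit NCAPH2. Its median is therefore not that of mitotic entry alone. PPP2R2A, a B subunit of the phosphatase that reverses CDK1 phosphorylation, had -0.63 and an adjusted p of 0.151.

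The kinetochore and centromere list had 33 of 41 negative values and a median log2 fold change of -0.24. CENPM, a centromere protein, fell to 34.2% of control and was the only 1 of the 41 called in the authors' deposited table. CENPM passed under all 8 alternatives run. All 13 mitotic kinesins were negative, with a median of -0.22 and none called, and KIF2C, the microtubule depolymerase at centromeres, had -0.58 with an adjusted p of 0.154. The DNA replication list, whose genes act earlier in the cycle, had 46 of 50 negative values and a median of -0.38. Its 1 called gene went the other way, as GINS1, a subunit of the replicative helicase, rose to 169% of control with an adjusted p of 0.0186, per the authors' deposited table. GINS1 was not called at a threshold of 0.01, against an empirical null (0.0808) or in a test against a 1.2-fold change (0.539). The lists do not share genes with the 54, and no difference between lists was tested.

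**Figure D4:**
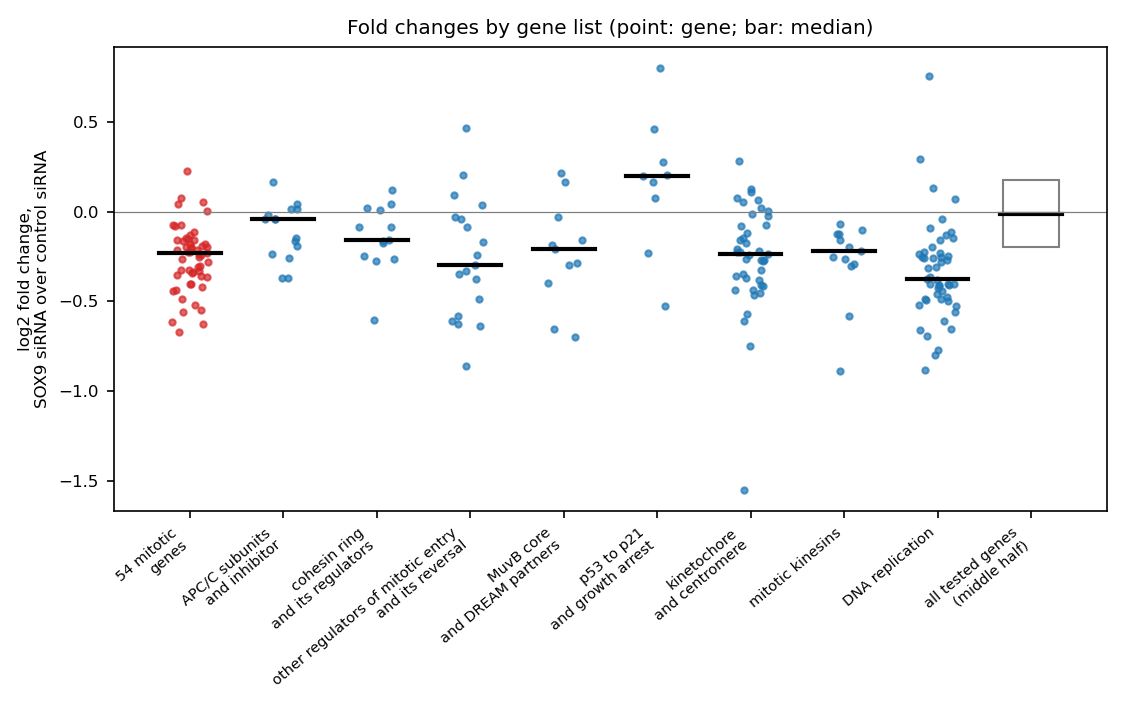
Log2 fold change of each tested gene, SOX9 siRNA over control siRNA, for the 54 mitotic genes and 8 other lists, with bars at the medians and, at the right, the middle of all tested genes from the lower to the upper quartile. The median of the 54 is -0.23, that of DNA replication -0.38, that of the p53 to p21 list 0.20 and that of all tested genes -0.02.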

How the data were processed

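RNA-seq of PANC-1 cells was used, with 2 libraries per siRNA, stranded total RNA per the labels' protocols. For the RNA libraries the submitters' processing notes give HISAT2 2.0.5 and featureCounts, followed by DESeq2 1.18.1, with settings not given. Of the builds hg19 and mm10 in those notes, neither has a stated role. The sources used here do not say whether counting used strand, and 27 of the 54 genes overlap another gene in RefSeq, 18 of them a gene that the authors' table also lists. Each gene has, per the file headers, a mean count scaled by size factors, used here as a signal. The authors deposited the fold change and standard error in log2 units, the Wald statistic as a score, and a p-value with its adjusted value. The authors gave an adjusted p-value for 14063 genes, and "tested" is used here of those genes. The other 5767 have no adjusted p, though PTTG3P among them has an unadjusted p. The table used holds no values per library, so no new fit was made on counts.

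From these values, 95% intervals (1.96 standard errors each way), percentages of control, implied group means (from the mean and the fold change, with equal group sizes) and medians were computed with Python 3.11.15, pandas 2.3.3 and scipy 1.17.1. Calls needed an adjusted p under 0.05, and "rose" and "fell" are used of called genes. The alternatives were other thresholds, adjustment over every gene, centring, an empirical null, a test against a 1.2-fold change and count minimums. The calling step was tested on simulated data, with changes larger than those of any of the 54 genes. Every one of the 54 genes is named, with full statistics for those called, those with an unadjusted p under 0.05 and the smallest p of each role group. In other lists the called genes are named, or otherwise the gene with the smallest p, and CDKN1A was added after its value was seen. The genes, role groups, lists and motifs were chosen with earlier results of these data known. SGOL1 and SGOL2 were matched in RefSeq by their older symbols. A marker gene of the list is not reported here.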

Additional observations from a re-analysis of the deposited data

How the results depend on the processing

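Of the 54 genes, 0 rose in the authors' test or under any alternative run. The number that fell was 2 at an adjusted p under 0.1 (CDK1 and TOP2A). It was 0 at an adjusted p under 0.01, 0 with centring within 10 bins of mean count, 0 with an empirical null and 0 in a test against a 1.2-fold change, and under each of these TOP2A was the gene lost. TOP2A stayed called with adjustment over every gene, with centring on the median and with a mean count of at least 100. Calls over all genes numbered 254 (48.0% rises) in the authors' test, 368 at 0.1, 109 at 0.01 (55.0% rises), 96 with the empirical null (61.5% rises) and 37 against a 1.2-fold change (62.2% rises). The median log2 fold change of the 54 ranged from -0.23 to -0.18, and 49 stayed negative after either centring. The median was -0.24 over the 52 genes with a mean count of at least 1000. Among genes with a standard error at or below the median, 23 of 27 were negative. In promoters cut to 150 bases, TTTGGCGC was in 0, TTTCGCGC in 1, ACAATG in 1 and ACAAAG in 0 of the 63. The cause of these shifts was not tested. No paired analysis was possible because the table holds no values per library. For the same reason leaving out a library, another normalization of counts and a filter on the counts of single libraries were not run, and the minimums used were on the authors' mean count.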
